A study of Mus musculus with 2 samples.

Results

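Narrow regions shared by both histones were places where wild-type H2A.Z and its K3R3 mutant were each called in a single short region, and where these overlapped. They were found by a rule on the authors' looser lists of enriched regions, named in the file headers by the threshold 1e-09. On the autosomes other than 6 and 8, a wild-type and a K3R3 region had to overlap each other by at least 1 bp and no other region, both had to be under 200 bp wide, and their width ratio had to lie between 0.5 and 2, both excluded. This gave 4123 pairs, hence 8246 of the 213840 regions in the 2 looser lists. The members were chosen by overlap and width alone. Of the 65930 pairs of 1 region per library on these 17 autosomes, the rule took 4123. Both measures are therefore given as a description, with no test.

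The cells were mouse embryonic stem cells labelled as strain V6.5, a hybrid of 129SvJae and C57BL/6, while the protocol calls the transgenic lines KH2. Both groups carried H2A.Z fused to YFP, delivered by lentivirus under a CMV promoter with rtTA-dependent control, induced with doxycycline at 1 µg/ml and sorted for YFP. In both, short hairpins against the 3′ UTR of endogenous H2A.Z lowered the untagged protein, so by the labels the groups differ in the transgene. In K3R3, 3 lysines of the C-terminal tail were arginines. The antibody listed, Abcam Ab290, is raised against GFP and recognises YFP, so chromatin carrying the tagged histone was pulled down and sequenced. There was 1 library per group, the number of clones behind a line is not given in the sources used here, and region lists hold no markers with which to check the cell type.

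H2A.Z replaces H2A in a minority of nucleosomes and is known for sitting beside transcription start sites and at enhancers. In embryonic stem cells it is found at active genes and at developmental genes that are silent but poised, where part of it carries mono-ubiquitin on the C-terminal lysines, added by the RING1B ligase of Polycomb repressive complex 1. Arginine cannot take ubiquitin. The study asks how this mark acts in poised chromatin. The narrow shared places show how closely calls for the 2 histones match where a call covers roughly the DNA of a nucleosome or less.

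With 1 library per group there is no replicate check and no p-value. Shares carry 95% Wilson intervals. These count regions as if independent and reflect counting error alone, and the read depth behind the lists is unknown. In the wild type 99812 regions passed the looser threshold and 97146 the stricter one (1e-12), and in K3R3 114028 and 110435. All coordinates were multiples of 25 bp, so a width can take 7 values under 200 bp, from 25 to 175 bp, and a midpoint distance moves in steps of 12.5 bp. Fragments of 200 to 400 bp were selected for sequencing, so the narrow regions were shorter than the selected fragments.

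Most narrow regions did not find a narrow partner. The wild-type list had 19477 regions under 200 bp on the 17 autosomes, and 4123 of them (21.2%, interval 20.6 to 21.7) were members. The K3R3 list had 23234, of which 17.7% (17.3 to 18.2) were members. The rest went different ways in the 2 libraries. In the wild type, 34.8% of the narrow regions overlapped no K3R3 region, and 34.2% overlapped a K3R3 region of at least 200 bp. In K3R3, 64.0% overlapped no wild-type region, and only 9.93% overlapped a wild-type region of at least 200 bp. Over regions of all widths, 84.1% overlapped a region of the other list in the wild type and 69.8% in K3R3, so narrow regions were shared less often than the list they came from in both libraries. A further 1929 narrow pairs were set aside by the width ratio, and among them K3R3 was the wider in 1288 and the wild type in 641.

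Within the pairs, K3R3 regions were on average slightly wider. Wild-type widths averaged 128.8 bp (SD 35.8, n = 4123 pairs), with a median of 125 bp. K3R3 widths averaged 136.3 bp (SD 36.8), with a median of 150 bp. K3R3 was wider in 1817 pairs (44.1%, 42.6 to 45.6), the wild type in 1101 (26.7%, 25.4 to 28.1), and 1205 (29.2%) had equal widths. Over all pairs of 1 region per library, 54.4% were wider in K3R3 and 31.6% in the wild type, and the narrow pairs showed the same order with more ties. Dividing wild-type by K3R3 width gave a mean log2 ratio of -0.08 (SD 0.40 over pairs). The rule caps both widths and their ratio and so bounds this mean, which was -0.26 without the ratio limit. Under the rule the mean was negative on all 17 autosomes. It ran from -0.13 on chromosome 13 to -3.2e-05 on chromosome 12, where the libraries were level. On chromosomes 6 and 8, which the rule leaves out, 695 pairs met the other criteria and the mean was 0.05, so the direction turned there.

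K3R3 widths rose in number up to the upper width limit, while wild-type widths peaked below it. In K3R3 1293 members (31.4%) were 175 bp wide, the widest class, and in the wild type 874 (21.2%). The most common wild-type width was 125 bp, with 1005 members. The fullest combination was 175 bp in both libraries, with 401 pairs. A wild-type region of 150 bp met a K3R3 region of 175 bp in 352 pairs, and the other way round in 230. Regions of 25 bp, a single step of the grid, made up 50 pairs, since the ratio limit lets a 25 bp region pair only with another of 25 bp.

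**Figure D1:**
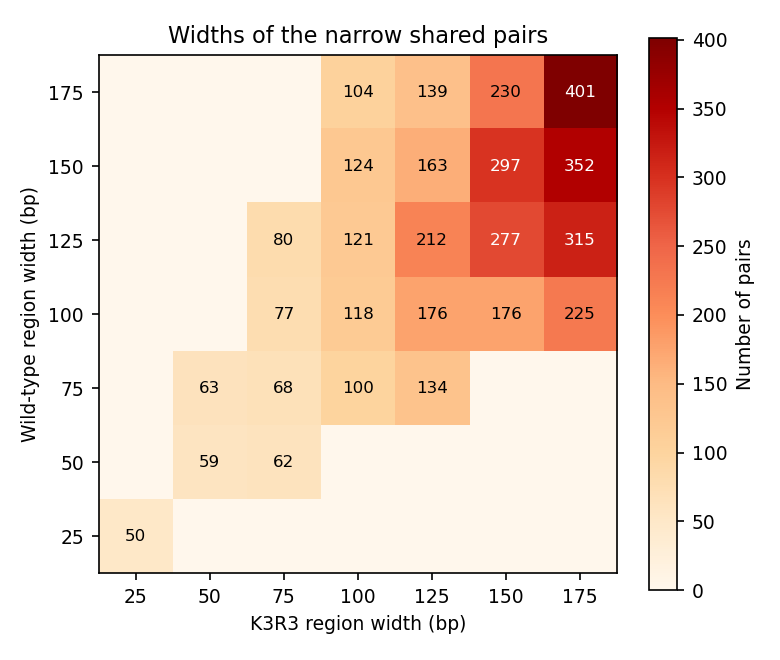
Number of narrow shared pairs at each combination of K3R3 region width (horizontal, bp) and wild-type region width (vertical, bp), with empty cells excluded by the width-ratio limit. The fullest cell holds 401 pairs with 175 bp in both libraries, and cells below the diagonal, where K3R3 is wider, hold 1817 pairs against 1101 above it.

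The centres of the 2 regions lay close together. The midpoint distance had a median of 12.5 bp and a mean of 17.6 bp (SD 17.3), and quartiles of 0 and 25 bp. Midpoints coincided in 1102 pairs (26.7%, 25.4 to 28.1), lay 12.5 bp apart in 1511, and 25 bp apart in 829. Only 138 pairs (3.35%) were more than 50 bp apart. Overlap caps this distance, so it was also set against the largest that the 2 widths allow with 25 bp of overlap, and its median was 11.1% of that, a larger part than in wider pairs. In 3979 pairs (96.5%, 95.9 to 97.0) the overlap covered at least 50% of both regions. In wider pairs held to the same width ratio this share was higher. It was 99.8% (99.7 to 99.8) at 200 to under 400 bp, and 99.9% both at 400 to under 1000 bp and at 1000 bp or more. Over all pairs, which are not held to that ratio, it was 89.8%, and in narrow pairs outside the ratio 20.8%. The ratio limit thus builds in part of this share.

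In bp, the offsets were nearly the same in pairs of the next width class. The 16507 pairs of 200 to under 400 bp, held to the same width ratio, had a mean midpoint distance of 18.0 bp (SD 18.2). Midpoints within 12.5 bp made up 63.4% (61.9 to 64.8) of the narrow and 63.5% (62.7 to 64.2) of these pairs. Distances grew above that width, to a mean of 27.5 bp in 18824 pairs of 400 to under 1000 bp and 49.7 bp in 7780 pairs of at least 1000 bp. The means of the 2 narrowest classes were thus close in bp, although the widths in the second allow larger offsets. Relative to the largest offset allowed, the median was 11.1% in narrow pairs and 5.26% at 200 to under 400 bp. It was 2.86% at 400 to under 1000 bp and 1.49% above. The median distance itself was 12.5 bp in each class under 1000 bp and 25 bp above, so these percentages fall because the widths grow. The offset had no preferred side, with the K3R3 midpoint at the higher coordinate in 1557 narrow pairs and at the lower in 1464.

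**Figure D2:**
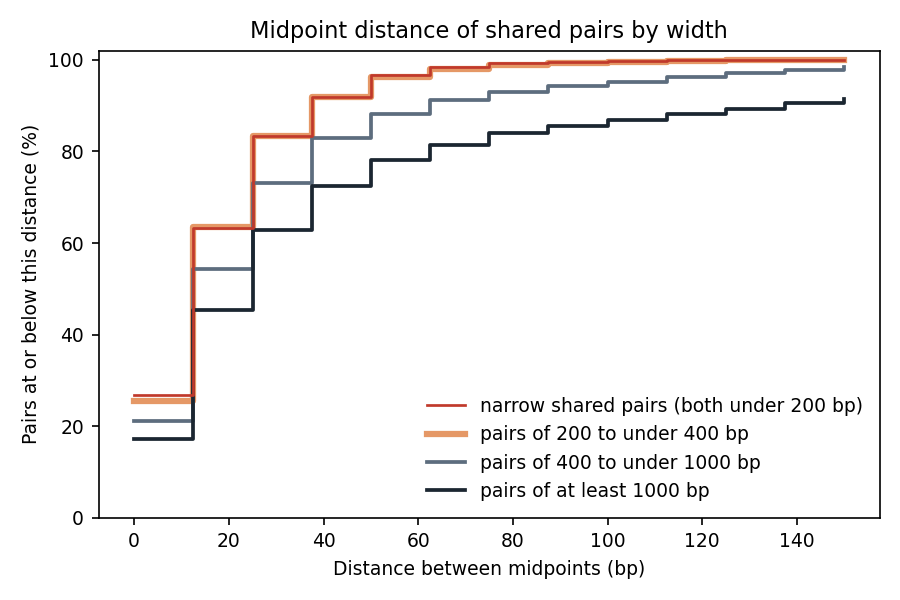
Cumulative share of pairs (%) by distance between the wild-type and K3R3 midpoints (bp), for narrow shared pairs (thin red line) and 3 classes of wider pairs with the same width-ratio limit. The red line runs over that of pairs of 200 to under 400 bp, with 83.5% and 83.4% of pairs within 25 bp, and both lie above the wider classes.

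The 2 regions of a pair often shared an edge. Start and end were identical in 674 pairs (16.3%, 15.3 to 17.5), against 8.22% of all pairs of 1 region per library and 13.1% (12.6 to 13.7) of the pairs of 200 to under 400 bp. Another 1787 pairs (43.3%, 41.8 to 44.9) had the same start or the same end, close to the 42.9% (42.1 to 43.6) of pairs of 200 to under 400 bp and above the 38.1% of all pairs. With either or both edges shared, the figures were 59.7% for members, 56.0% for pairs of 200 to under 400 bp and 46.3% for all pairs. The share with identical edges is partly built in. In 50 of the members both regions were 25 bp wide, and such regions must coincide on the grid if they overlap. Shorter regions also have fewer possible offsets. The wild-type region lay inside a longer K3R3 region in 1559 pairs (37.8%), the reverse held in 880 (21.3%), and 1010 (24.5%) were staggered, each region reaching past the other on 1 side. Over all pairs these shares were 49.0%, 27.0% and 15.8%, but all pairs are not held to the width ratio. Of the narrow pairs outside that ratio, 3.78% were staggered. In pairs of 200 to under 400 bp, which are held to it, the shares were 47.6%, 21.0% and 18.3%. Against these, members were staggered more often, and the wild-type region lay inside the K3R3 region less often, while the reverse was level. Of pairs of at least 1000 bp, 20.6% were staggered.

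The 3 pairs with the largest midpoint distance show the far end of this range. In mm9, a wild-type region of 175 bp on chromosome 13 (43230976 to 43231150) met a K3R3 region of 150 bp (43230851 to 43231000) in a single 25 bp step, with midpoints 137.5 bp apart. At the stricter threshold the wild-type region shrank to 25 bp and the K3R3 region to 50 bp (43230876 to 43230925), and they no longer touched. On chromosome 11, 2 regions of 150 bp (wild type 108780201 to 108780350, K3R3 108780076 to 108780225) were 125 bp apart by midpoint, and in the stricter lists only a wild-type region of 100 bp was left. On chromosome 2, the first by position of 4 pairs at 112.5 bp, regions of 175 bp (167271401 to 167271575) and 100 bp (167271551 to 167271650) met, and again only the wild type, with 150 bp, was present in its stricter list. In each of these pairs the shared place rested on 25 bp of overlap. No gene, exon, intron or UTR is assigned to these places, because the gene table used here is of another build than the regions.

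Narrow pairs were in the stricter lists less often than wider ones. Both regions had a counterpart in the stricter list of their own library in 2416 pairs (58.6%, 57.1 to 60.1). The same held for 90.2% of all pairs of 1 region per library, for 98.3% (98.1 to 98.5) of the pairs of 200 to under 400 bp and for 99.9% of those of at least 1000 bp. In 633 narrow pairs (15.4%) only the wild-type region was present at the stricter threshold, in 601 (14.6%) only the K3R3 region, and in 473 (11.5%, 10.5 to 12.5) neither was, against 1.51% of all pairs. Over regions of all widths, a counterpart in the stricter list of the same library was found for 89.3% in the wild type and 88.2% in K3R3. The libraries were level among members too, with 73.95% (72.6 to 75.3) of the members in the stricter wild-type list and 73.2% (71.8 to 74.5) in the stricter K3R3 list. The stricter lists come from the same reads as the rule, so these shares describe the calls and are no independent check.

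From 50 bp upward, the share that passed rose with width in both libraries. Wild-type members of 175 bp were in the stricter list in 97.7% of cases (854 of 874), those of 125 bp in 79.9% (803 of 1005), those of 100 bp in 53.8% (415 of 772) and those of 75 bp in 26.6% (97 of 365). In K3R3 the shares were 96.8% at 175 bp (1252 of 1293), 73.2% at 125 bp (603 of 824), 39.2% at 100 bp (222 of 567) and 14.3% at 75 bp (41 of 287). The wild-type share was the higher one at every width from 25 to 175 bp. The intervals of the libraries lay apart from 75 to 125 bp and overlapped at the other widths. Of the 401 pairs with 175 bp in both libraries, 370 (92.3%, 89.2 to 94.5) were in both stricter lists. Of the 50 pairs of 25 bp none was, which allows a share of up to 6% by 3 counts of the total and 7.13% by the Wilson interval, although 7 of their wild-type regions passed.

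At equal width from 75 bp upward, members were in the stricter list more often than narrow regions that the other library lacked. Among wild-type regions of 150 bp the shares were 92.3% (90.4 to 93.8) for members and 82.7% (80.0 to 85.1) for the 844 without any K3R3 region. At 125 bp they were 79.9% (77.3 to 82.3) and 70.7% (67.8 to 73.5), and at 175 bp 97.7% and 90.3%. In K3R3 the shares were 90.9% (89.0 to 92.6) and 84.5% (83.0 to 85.9) at 150 bp, 73.2% (70.1 to 76.1) and 63.6% (61.6 to 65.5) at 125 bp, and 96.8% and 92.3% at 175 bp. The gap was thus smaller in K3R3 than in the wild type at 150 and 175 bp and slightly larger at 125 bp. The intervals of members and unshared regions overlapped at 50 and 75 bp in the wild type and at 25, 75 and 100 bp in K3R3. Over all widths, 42.3% of the 6771 narrow wild-type regions without a partner were in their stricter list, and 45.4% of the 14876 in K3R3, but these were also narrower, with means of 94.0 and 104.8 bp.

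**Figure D3:**
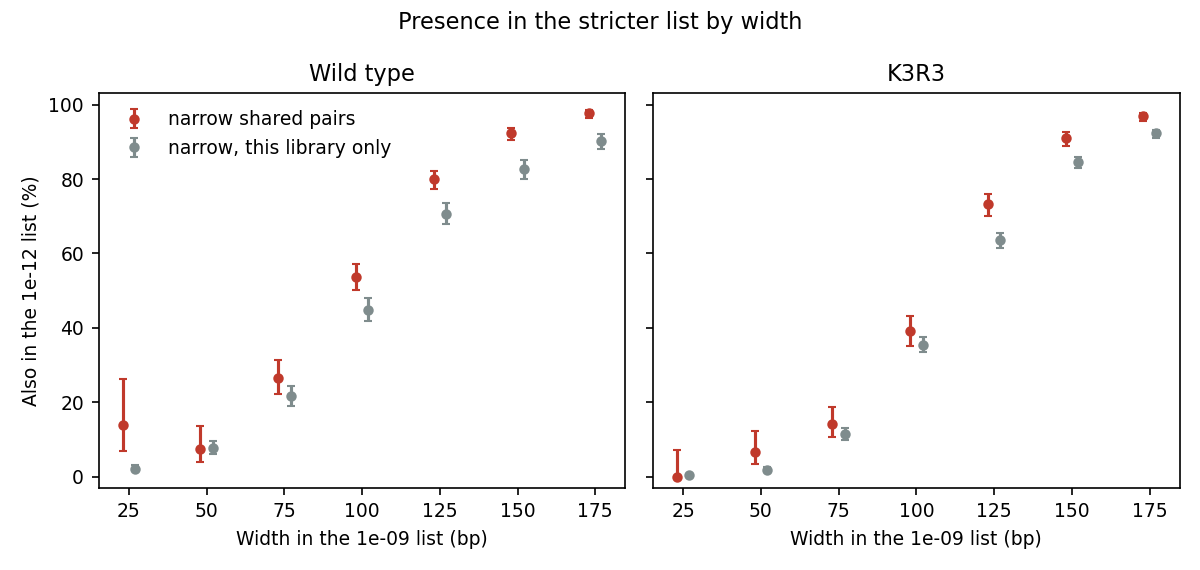
Share of narrow regions (%) also found in the 1e-12 list of the same library, by width in the 1e-09 list (bp), for members of shared pairs (red) and regions that the other library lacks (grey), with 95% Wilson intervals. Both sets rise with width from 50 bp upward, from 7.44% to 97.7% for wild-type members, and members lie above unshared regions from 125 bp upward in both libraries.

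Over all widths, K3R3 members passed more often where their wild-type partner did, but at a fixed K3R3 width from 75 to 175 bp the 2 shares lay closer together. The K3R3 region was in its stricter list in 79.2% (77.8 to 80.6) of pairs whose wild-type region passed and in 56.0% (53.0 to 58.9) of those whose wild-type region did not. Among K3R3 members of 125 bp the shares were 73.7% (70.1 to 77.1) and 71.7% (65.5 to 77.2), and at 175 bp 97.1% and 95.3%. They were 41.1% and 34.7% at 100 bp and 91.9% and 86.4% at 150 bp. At 75 bp the order turned, with 13.9% (19 of 137) where the partner passed and 14.7% (22 of 150) where it did not, and the intervals of the 2 shares overlapped at each of these 5 widths. For K3R3 regions in the 212 pairs with 125 bp in both libraries the gap was larger. It was 76.0% (69.0 to 81.9) against 55.6% (41.2 to 69.1), on 167 and 45 pairs. In the reverse direction, wild-type members of 125 bp passed in 81.8% (78.94 to 84.40) of cases where the K3R3 partner did. Where it did not, the share was 73.75% (67.84 to 78.91). At 175 bp these shares were 98.5% (97.3 to 99.2) and 93.9% (88.8 to 96.7), so the intervals lay apart at 125 and 175 bp. They overlapped at 75, 100 and 150 bp, and at 100 bp the order turned, with 53.7% against 54.0%.

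Regions that passed lay inside their looser regions, and most lost width. Start and end were unchanged in 297 wild-type members (9.74%, 8.74 to 10.8) and 279 K3R3 members (9.25%, 8.27 to 10.3) of those that passed. In both libraries every stricter region over a member lay inside the looser one and none was wider, where a count of 0 allows, by 3 counts of the total, up to 0.0984% of the 3049 members in the wild type and 0.0994% of the 3017 in K3R3. The Wilson limits for these counts were 0.126% and 0.127%. The looser and stricter lists of a library come from the same reads, but the stricter lists were not fully contained in the looser ones. Of the 4478 narrow pairs that the same rule found in the stricter lists, 90.2% had a region in both looser lists. Whether the nesting of members follows from the thresholds was not tested. The limits given for the counts of 0 reflect counting error and are no check on position. Median width went from 150 to 100 bp in both libraries. The mean loss was 49.5 bp (SD 30.3) in the wild type and 49.4 bp (SD 30.9) in K3R3. In 2313 of the 2416 pairs present in both stricter lists (95.7%, 94.9 to 96.5) the 2 stricter regions still overlapped each other. Over all 2416 pairs, the median midpoint distance in the stricter lists was again 12.5 bp. K3R3 was the wider in 48.0% of the 2416 and the wild type in 33.4%. The mean log2 ratio was -0.15, against -0.10 for the same pairs in the looser lists.

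The smallest members seldom passed the stricter threshold. The first 3 by position of the 50 pairs with the same 25 bp in both libraries lay on chromosome 1, at 107464751 to 107464775, 182284676 to 182284700 and 183513926 to 183513950. None of these 3 was in a stricter list of either library. The second lay 850 bp from a wide region, the others 95025 and 72175 bp from one. At the other limit, 329 pairs had the largest width ratio that the rule admits, 175 against 100 bp, and the first 3 by position also lay on chromosome 1, with K3R3 the wider in each. At 8459351 to 8459525 the K3R3 region kept its 175 bp in the stricter list, while the wild-type region of 100 bp (8459401 to 8459500) shrank to 25 bp. At 24271451 to 24271625 and 48629151 to 48629325 only the K3R3 region was found again, with 125 bp at each. In these 3 pairs the narrower partner was lost or cut to 25 bp, and the wider one stayed in its list, cut in 2 of them. Over all members, the K3R3 region was in its stricter list in 86.5% of pairs where it was the wider and 52.3% where the wild type was. The wild-type region was in its list in 87.4% of pairs where it was the wider and 64.1% where K3R3 was.

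Just inside the width limit, the 1766 pairs whose wider region was 175 bp were in both stricter lists in 78.9% of cases. Just outside, 2889 pairs whose wider region was 200 bp reached 92.0%, and the median midpoint distance was 12.5 bp on both sides. Just inside the ratio limit the 329 pairs of 175 and 100 bp reached 45.9%, and the 436 narrow pairs at a ratio of exactly 0.5 or 2 reached 9.40%.

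Narrow shared places mostly lay away from wide H2A.Z regions. The median gap from a pair to the nearest region of at least 1000 bp in either looser list was 43425 bp, with quartiles of 11762.5 and 147625 bp. Only 153 pairs (3.71%, 3.18 to 4.33) had a wide region within 1000 bp, against 6.78% of all pairs of 1 region per library. Within 10000 bp it was 920 (22.3%, 21.1 to 23.6), against 32.7% of all such pairs. In 1353 members (32.8%) the nearest wide region was over 100000 bp away, and in 99 (2.40%) over 1000000 bp, against 23.1% and 1.45% of all such pairs. The median gap was 54900 bp to wild-type wide regions alone and 52875 bp to K3R3 wide regions alone. The nearest wide region was itself overlapped by regions of both looser lists for 93.9% of the pairs, close to the 95.4% of all wide regions of which this held.

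The gap fell with width from class to class. Its median was 32900 bp for pairs of 200 to under 400 bp, 20400 bp for those of 400 to under 1000 bp and, from a pair of at least 1000 bp to the next wide region, 11975 bp. Narrow regions found in the wild type only lay nearer to wide regions than the shared ones, with a median of 30100 bp and 28.6% (27.5 to 29.7) within 10000 bp. Narrow regions found in K3R3 only had a median of 43650 bp and 22.9% (22.2 to 23.5) within 10000 bp, close to the shared ones. Narrow pairs outside the width ratio were close to them too, with a median of 46175 bp and 33.2% over 100000 bp away. No test of these differences was possible with 1 library per group. Among members, presence in both stricter lists varied little with this gap, at 55.1% (51.9 to 58.3) within 10000 bp, 59.3% (57.0 to 61.5) from there to 100000 bp and 60.0% (57.4 to 62.6) beyond.

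**Figure D4:**
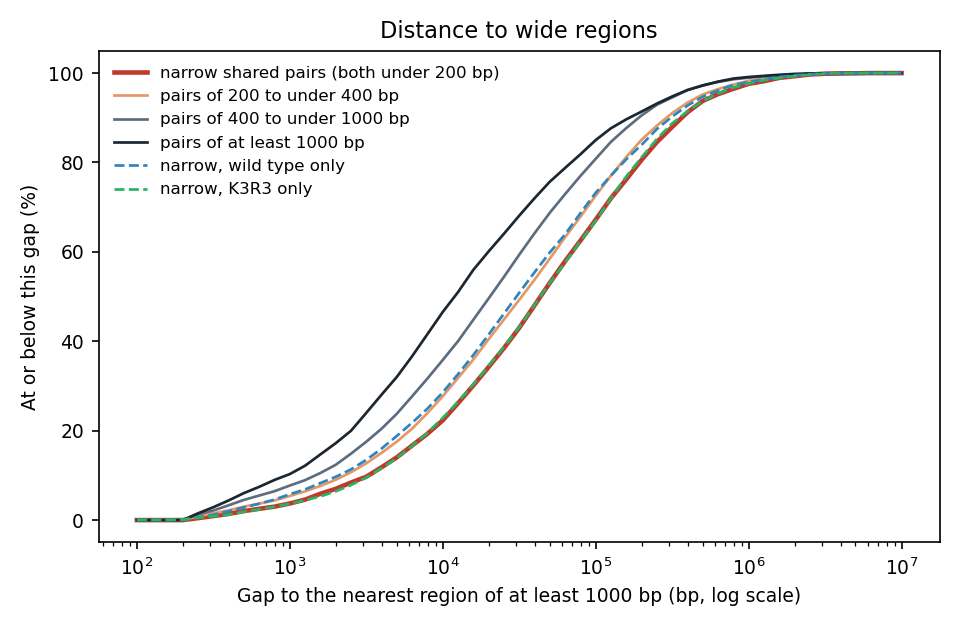
Cumulative share (%) of pairs or regions by gap to the nearest region of at least 1000 bp in either looser list (bp, log scale), for narrow shared pairs (red), wider pairs (solid) and narrow regions of 1 library only (dashed). The red line, with a median of 43425 bp, lies to the right of all wider classes and runs along that of narrow K3R3-only regions, while narrow wild-type-only regions lie to the left of both.

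The 3 members farthest from any wide region lay in a single stretch of chromosome 15 poor in wide regions. At 18940676 to 18940850, 5837175 bp from the nearest wide region, a K3R3 region of 175 bp enclosed a wild-type region of 125 bp with the same midpoint, and both were in the stricter lists, with 150 and 125 bp. At 19715926, 5626050 bp away, a wild-type region of 75 bp and a K3R3 region of 100 bp began at the same base, and neither was in a stricter list. At 21040801, 4301100 bp away, a wild-type region of 175 bp and a K3R3 region of 125 bp also shared their start, and both were present in the stricter lists, with 125 and 50 bp. The nearest other region of any width lay 110850, 107175 and 96100 bp from these 3 places.

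Regions of any width were nearer. The median gap from a member to the next region of either looser list was 2450 bp, and 1220 members (29.6%) had one within 1000 bp. For pairs of 200 to under 400 bp the median was 1875 bp and the share 36.0%. Within 10000 bp on either side, members had a mean of 1.97 wild-type regions (SD 2.07) and 2.34 K3R3 regions (SD 2.28), and pairs of at least 1000 bp had 3.21 (SD 2.57) and 3.52 (SD 2.68). In 925 members (22.4%, 21.2 to 23.7) no other region lay within 10000 bp, and in 100 (2.43%) none lay within 100000 bp. Over all pairs of 1 region per library these shares were 15.7% and 1.02%. In narrow pairs outside the width ratio they were 23.0% and 2.18%, close to those of members.

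Few members lay side by side. Whether they were clustered or spread out relative to random placement was not tested. The median gap between a member and the next was 110150 bp, and only 62 members had another within 1000 bp. They fell into 1514 of 2200 windows of 1 Mb (68.8%), of which 497 held a single member. The 3 fullest windows were chromosome 11 from 117 to 118 Mb with 13 members among 158 pairs of 1 region per library, chromosome 3 from 89 to 90 Mb with 12 among 137, and chromosome 5 from 149 to 150 Mb with 11 among 105. Of these members 8, 5 and 7 were in both stricter lists. A window on chromosome 19, from 44 to 45 Mb, also held 11.

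By chromosome, density followed that of all shared regions only in part. Chromosome 11, the densest in pairs of 1 region per library, with 48.2 per Mb up to its last region, was also the densest in members, with 2.65 per Mb. Chromosome 1 had the fewest members per Mb, 1.52. As a share of pairs of 1 region per library, members ranged from 5.16% (4.44 to 6.00) on chromosome 15 to 8.04% (7.16 to 9.02) on chromosome 3, and chromosome 11 was among the lowest with 5.50% (4.95 to 6.11). Chromosome 3 had the fewest such pairs per Mb, 20.7. Presence in both stricter lists ran from 54.9% (48.2 to 61.4) on chromosome 17 to 63.9% (55.1 to 71.9) on chromosome 19, with intervals that overlap. The median midpoint distance was 12.5 bp on each of the 17 autosomes.

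**Figure D5:**
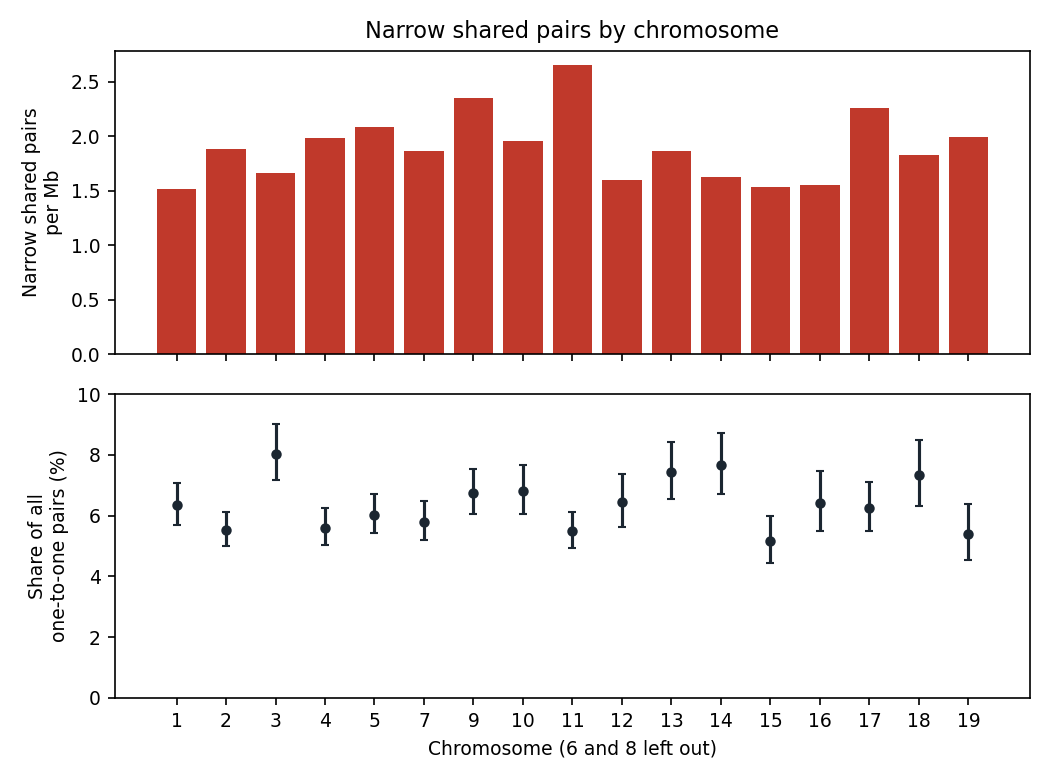
Narrow shared pairs per Mb up to the last region of each chromosome (bars, top) and as a share of all pairs of 1 region per library there (points with 95% Wilson intervals, bottom), for the 17 autosomes used. Chromosome 11 has the tallest bar, 2.65 per Mb, but one of the lower shares, 5.50%, and chromosome 3 has the highest share, 8.04%.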

How the data were processed

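The data were 4 lists of enriched regions, 2 per library, each giving the position of every region and no height, score or p-value. Per the submitters' processing notes, the authors used Bowtie 0.12.3, bedtools and the mouse build mm9. Per the file headers, the lists are named by the thresholds 1e-09 and 1e-12. For the region caller, its control and its filters, nothing is given in the sources used here. Each list came from a single library, and differences in depth between libraries can change how many narrow regions are called.

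From the deposited coordinates, pairs, widths, midpoint distances and gaps between edges were computed with Python 3.11.15, numpy 2.4.6, pandas 2.3.3 and scipy 1.17.1, and drawn with matplotlib 3.10.9. A region counted as present in a stricter list when it overlapped a region there of the same library by at least 1 bp. A pair's own regions were passed over when its gap to a wide region was measured. Overlap counts of all regions and the gaps of all 4123 members matched bedtools 2.31.1, and the pairing was tested on simulated data. Coordinates are printed 1-based. Members and settings were chosen with earlier results of these data known. Named places are the first 3 by gap to a wide region, midpoint distance, width ratio, and smallest identical width, ties going to the lower chromosome and start, and the 3 fullest 1 Mb windows. Sequences and gene context were not used here, for want of an mm9 genome and annotation.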

Additional observations from a re-analysis of the deposited data

How the results depend on the processing

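The median midpoint distance was 12.5 bp under each of the 8 alternatives run for it. K3R3 was wider on average in 7 of the 8, and the wild type on chromosomes 6 and 8 alone, an alternative added after seeing the data. Of 72 values recomputed, 33 stayed within the counting interval of the reported one, or within 1.5 times for counts. For the rest the cause was not tested. Shares of narrow regions that were members are given for the wild type, then K3R3. With the rule applied to the 1e-12 lists they were 21.9% and 18.3%, with 90.2% of pairs present in both 1e-09 lists and a median gap to wide regions of 47537.5 bp. A width limit of 150 bp gave 1320 pairs, shares of 10.9% and 9.40%, 25.5% in both stricter lists and a mean log2 width ratio of -0.050. A limit of 250 bp gave 9870 pairs, 34.6% and 27.97%, 78.8% and -0.11. No limit on the width ratio gave 31.1% and 26.0%, 41.8% and -0.26. An overlap of at least 50% of both regions gave shares of 20.4% and 17.1%. All chromosomes gave a K3R3 share of 18.3% and a mean log2 ratio of -0.064. Pairs with no other region within 1000 bp made up 14.9% and 12.5%, with median gaps of 60175 bp to a wide region and 4975 bp to any region. Chromosomes 6 and 8 alone gave 695 pairs, 19.5% and 23.0%, 56.4% in both stricter lists, gaps of 36725 and 2200 bp, and a mean log2 ratio of 0.048. The share in both stricter lists was 56.1% where the stricter regions had to overlap each other, and 1.09% where start and end had to be unchanged. The median gap to wide regions was 27850 bp with wide set at 800 bp, 412200 bp at 2000 bp, 54900 bp for wild-type and 52875 bp for K3R3 wide regions. No paired analysis was possible because there was 1 library in either group. The unknown depth limits what narrow calls show.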
